A study of Mus musculus with 18 samples.

Results

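Gene expression in p53-/- FDM cells was compared with that in WT FDM cells while both were still growing in IL-3 (0 h). Every probe detected on at least 1 of the 6 arrays of this time point was taken, which gave 18917 of the 46632 probes on the array and 10280 of the 11195 named genes detected on any of the 18 arrays of the series. FDM (factor-dependent myeloid) cells are mouse myeloid progenitors transformed with HoxB8 that depend on IL-3, so both genotypes carried HoxB8 and were kept in the same cytokine. Each genotype was represented by 3 independent clones with 1 Illumina MouseWG-6 V1 array per clone, so a group stands for 3 cell lines and not for 3 animals. The same clones were also arrayed 6 and 18 h after IL-3 was removed, and those 12 arrays entered the fit and served to see whether a difference was measured again.

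p53 is a transcription factor that binds its response elements as a tetramer and activates genes that halt the cell cycle, repair DNA or start apoptosis. It is kept at a low level in unstressed cells by MDM2, and part of its program is transcribed even without damage. Its loss is known to slow apoptosis of cells that lose their cytokine, and the comparison at 0 h asks which transcripts already differed before the cytokine was taken away.

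The cells were first checked against their labels. Transcripts of Hoxb8, the transforming gene, were detected on all 6 arrays, at log2 levels of 12.54, 12.60 and 13.63 in the WT clones and 14.63, 12.04 and 12.17 in the p53-/- clones. The myeloid regulators Cebpa and Spi1, the granule proteases Ctsg and Prtn3 and the receptor chains Il3ra and Csf2rb2 were detected on all 6 arrays, while Kit was detected on none of them. The summed level of 14 myeloid progenitor markers was 14.49 to 15.14 on the log2 scale in WT and 14.60 to 14.96 in p53-/- clones, so the groups overlapped. Between 30.9 and 31.9% of probes were detected on the WT arrays and between 30.7 and 34.0% on the p53-/- arrays. Array weights, which measure how closely an array follows the fit, were 0.786 to 4.34 for WT and 0.566 to 0.631 for p53-/- arrays, so WT clone 2 carried the largest weight. WT clones 1, 2 and 3 had 0.786, 4.34 and 0.91. The WT side of each change at 0 h thus rests on WT clone 2 more than on both other WT clones together. Genotype was taken from the labels alone, since probes for the targeted gene were not analysed here. In bulk RNA, fewer cells of a type and less RNA per cell cannot be told apart.

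Loss of p53 went with differences in both directions. A probe was called where the limma adjusted p was at most 0.1 and the B statistic (log odds of a difference) positive, and 423 probes were called higher and 504 lower in p53-/- cells. Among the 21413 probes tested these are 1.98% higher and 2.35% lower, or 4.33% in all. The called probes stood for 334 genes higher and 410 genes lower, and 124 called probes carried no gene name. Their median log2 change was 1.22 for the higher and -1.63 for the lower probes, and 134 of the 191 probes that differed by more than 2 on the log2 scale were lower in p53-/- cells. The WT and p53-/- values did not overlap for 926 of the 927 called probes, and that was so for 27.3% of all probes tested. With each gene counted once through its brightest probe, 236 of 10280 genes (2.30%) were called higher and 304 (2.96%) lower, and the median log2 change over all genes was 0.04. The counts depended on single arrays. They were 102 higher and 129 lower without WT clone 2, 176 and 258 without p53-/- clone 3, 188 and 365 without WT clone 3, 194 and 326 without p53-/- clone 1, 291 and 283 without WT clone 1, and 320 and 333 without p53-/- clone 2. In the fits without each of the 6 arrays in turn, 150 genes were called in every one.

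**Figure D1:**
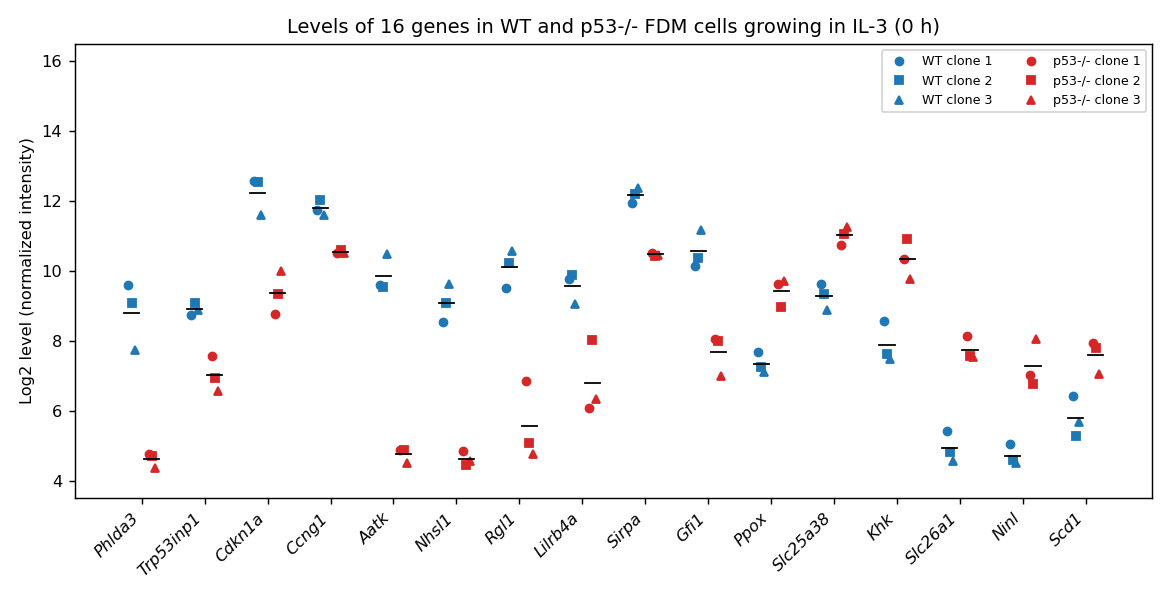
Log2 level of 16 genes (vertical axis, normalized intensity) in the 3 WT clones (blue) and the 3 p53-/- clones (red) at 0 h, with symbols for clones and black lines for group means. For all 16 genes the WT and p53-/- clones do not overlap, with Phlda3, Aatk and Nhsl1 below 5 in every p53-/- clone. Each gene is drawn on a called probe, and 926 of the 927 called probes do not overlap, so the separation came with the choice.

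Known p53 target genes were called in 1 direction. Of 41 measured targets, 6 were called lower in p53-/- cells and 0 higher (2.96% and 2.30% of all genes), 29 had a negative log2 change, as 46.7% of all genes did, and the median of the list was -0.36 against 0.04 over all genes. The 6 were Phlda3, Cdkn1a, Zmat3, Trp53inp1, Rrm2b and Ccng1, and all but Rrm2b were called lower again at 6 and at 18 h. Because these genes are listed for their activation by p53, the direction was part of the choice of the list.

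Phlda3, which encodes an inhibitor of AKT signaling, had log2 levels of 9.60, 9.08 and 7.74 in the WT clones and 4.77, 4.72 and 4.37 in the p53-/- clones. It was detected on every WT array and on no p53-/- array, and its level there was at least 9.0-fold lower (limma adjusted p = 8.64e-05). Cdkn1a, which encodes the cyclin-dependent kinase inhibitor p21, had log2 levels of 12.57, 12.55 and 11.59 in WT and 8.78, 9.33 and 10.01 in p53-/- clones. All p53-/- clones lay below all WT clones, but the transcript was still well detected in each of them. The log2 change of Cdkn1a was -3.02 ± 0.54 (SE, adjusted p = 0.00304) on its brightest probe and -2.30 ± 0.43 (adjusted p = 0.00395) on the second. Zmat3, which encodes an RNA-binding zinc finger protein, had log2 levels of 8.83, 8.84 and 7.61 in WT and 5.87, 6.31 and 6.25 in p53-/- clones, a change of -2.50 ± 0.48 (adjusted p = 0.00432). In Phlda3, Cdkn1a and Zmat3 alike, WT clone 3 was the lowest of the WT clones.

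Trp53inp1, which encodes a stress protein linked to autophagy, had log2 levels of 8.74, 9.09 and 8.88 in WT and 7.57, 6.95 and 6.58 in p53-/- clones, a change of -1.99 ± 0.22 (adjusted p = 0.000162). Ccng1, which encodes cyclin G1, had levels of 11.74, 12.02 and 11.62 in WT against 10.53, 10.60 and 10.51, a change of -1.38 ± 0.25 (adjusted p = 0.00317). The 3 p53-/- clones were almost level with one another for Ccng1. Its other probes had log2 changes of -1.20, -1.17 and -0.06, and none of these passed. Rrm2b, the p53-inducible subunit of ribonucleotide reductase, had low levels of 6.41, 6.53 and 6.05 in WT and was undetected in all p53-/- clones, at least 1.62-fold lower (adjusted p = 0.00632). Its log2 difference was 0.05 at 6 h and 0.84 at 18 h, where it was no longer lower.

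Several of the best known p53 targets did not pass at 0 h. Mdm2, which encodes the ubiquitin ligase that degrades p53, had log2 levels of 11.58, 11.55 and 11.60 in WT and 11.13, 10.82 and 11.63 in p53-/- clones, so the groups overlapped (change -0.36 ± 0.22, adjusted p = 0.315). The BH3-only gene Bbc3 (Puma) had a change of -0.55 ± 0.29 (adjusted p = 0.241). For Pmaip1 (Noxa) it was -0.12 ± 0.40 (adjusted p = 0.889), and p53-/- clone 1 was the highest of all 6 clones. Perp, Fas and Ddb2 had log2 changes of -0.95, -0.48 and 0.66, none of them called.

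Calls in this group rested on single arrays to different degrees. Phlda3 and Trp53inp1 were called with each of the 6 arrays left out, and Ccng1 in all but the fit without WT clone 2. Cdkn1a was not called without WT clone 1, WT clone 2 or p53-/- clone 1, although its log2 change stayed between -3.36 and -2.68. Zmat3 passed only without WT clone 3 and Rrm2b in no such fit. With the values processed by the authors Zmat3 was not called, and with replicate number as a block Rrm2b was not. The count of 6 became 2 without WT clone 2 and 3 without WT clone 1 or p53-/- clone 1.

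Promoter sequences from RefSeq (GRCm38.p6), 250 bases before to 50 after each start site, were searched on both strands for the p53 half-site, 10 bases that p53 dimers bind. Each gene was counted once, through any of its promoters. Such a match was found for 9.55% of 27025 genes with a promoter and for 8.34% of the 8408 of these measured at 0 h. It was found for 7.25% of 331 genes called lower, for 8.36% of 287 called higher, and for 6 of 66 (9.09%) called lower at all 3 times. The 6 were Cdkn1a, Ccng1, Nhsl1, Homez, Selenop and Pglyrp1. Promoter stretches of 3 of these genes are shown because they carry the matches in 2 listed targets and in Nhsl1, 1 of the genes with the smallest p, with the half-sites in capitals.
Cdkn1a (chr17:29090866-29090977, plus strand): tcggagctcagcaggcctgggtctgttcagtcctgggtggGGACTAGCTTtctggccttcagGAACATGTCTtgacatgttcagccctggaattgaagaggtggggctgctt
Ccng1 (chr11:40755422-40755511, minus strand): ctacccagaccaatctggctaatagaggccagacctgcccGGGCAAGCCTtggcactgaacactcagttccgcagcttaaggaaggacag
Nhsl1 (chr10:18407457-18407655, plus strand): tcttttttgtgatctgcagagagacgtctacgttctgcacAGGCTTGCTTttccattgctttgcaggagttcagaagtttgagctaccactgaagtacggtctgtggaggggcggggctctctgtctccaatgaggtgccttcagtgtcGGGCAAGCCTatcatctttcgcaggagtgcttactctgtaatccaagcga
The Cdkn1a matches began 73 and 51 bases before the start site, that of Ccng1 185 bases before it, and those of Nhsl1 178 and 69 bases before it. A match of letters is a description of the sequence and was not tested for binding.

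Beyond the listed targets, several genes with small p values were detected in no p53-/- clone. Aatk, which encodes a kinase, had log2 levels of 9.60, 9.53 and 10.48 in WT and 4.88, 4.88 and 4.50 in p53-/- clones. No p53-/- array detected it, and it was at least 18.9-fold lower (adjusted p = 2.03e-05). Nhsl1, which encodes a regulator of the actin cytoskeleton, had levels of 8.55, 9.09 and 9.63 in WT and was undetected in all p53-/- clones, at least 10.9-fold lower (adjusted p = 4.46e-05). The same held for Auts2, at least 8.85-fold lower, for Clnk, an adaptor of immunoreceptor signaling, at least 5.42-fold lower, and for Aoah, a lipase that inactivates lipopolysaccharide, at least 13.4-fold lower. Hs3st3a1, a heparan sulfate sulfotransferase, Cobl and Enah, which both act on actin filaments, were at least 7.78-fold, 10.2-fold and 10.3-fold lower. Rgl1 had levels of 9.51, 10.23 and 10.58 in WT and 6.84, 5.09 and 4.75 in p53-/- clones, with p53-/- clone 1 above the others. Over all probes, 158 were detected on all 3 WT arrays and on no p53-/- array, 80 of them called, and 155 on all 3 p53-/- arrays and no WT array, 41 of them called.

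In this set some clones kept expression. Tmem51 had log2 levels of 12.82, 13.09 and 12.67 in WT and 9.27, 7.11 and 5.48 in p53-/- clones. Thy1 had 14.72, 14.89 and 14.86 against 10.65, 9.59 and 4.53. In both genes the WT clones were close together and p53-/- clone 3 was the lowest. Thy1 lost its call without WT clone 2, WT clone 3 or p53-/- clone 3, with log2 changes between -7.80 and -4.74, Cobl lost it without WT clone 2, and Enah without WT clone 2 or WT clone 3. The other genes of this and the preceding paragraph were called with each array left out. Aoah, Hs3st3a1 and Cobl were not called with the values processed by the authors, Cobl not without background correction, and Thy1 not without array weights, without the filter on detection or with a trended and robust variance.

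Secreted and regulatory proteins were also among the genes lower at all 3 times. Rnase4, a secreted ribonuclease, had log2 levels of 10.15, 10.13 and 7.95 in WT and 6.46, 6.12 and 4.59 in p53-/- clones (change -4.11 ± 0.59, adjusted p = 0.000994), and Ang, the angiogenin ribonuclease next to it in the genome, had a change of -3.28 ± 0.45 (adjusted p = 0.000778). For both, WT clone 3 was more than 1 below the other WT clones. Selenop, the selenium carrier of plasma, had a change of -1.92 ± 0.25 (adjusted p = 0.000584). Gfi1, a zinc finger repressor that directs myeloid cell fate, had levels of 10.15, 10.37 and 11.16 in WT and 8.07, 7.99 and 6.99 in p53-/- clones, a change of -2.80 ± 0.43 (adjusted p = 0.00141). Lmo4, a LIM-domain transcriptional cofactor, had levels of 13.43, 13.82 and 13.50 against 11.93, 11.67 and 11.83, a change of -1.91 ± 0.25 (adjusted p = 0.000535). The groups were separated and the clones of each genotype close together for Lmo4. All 5 genes were called with each array left out.

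Among receptors of innate immune cells the calls were in 1 direction. Of 33 measured members, 9 were called lower in p53-/- cells and 0 higher, where 2.96% and 2.30% of all genes were, and 24 were not called. A negative change was found in 29 of them and in 46.7% of all genes, and the median log2 change was -0.85 against 0.04. The signaling chains Tyrobp (DAP12) and Fcer1g, which pair with activating receptors, were both called. Tyrobp had log2 levels of 12.14, 12.12 and 11.58 in WT and 8.35, 10.14 and 8.55 in p53-/- clones, a change of -3.01 ± 0.54 (adjusted p = 0.00298). Fcer1g had 14.74, 14.76 and 14.63 in WT and 12.84, 13.93 and 13.31 in p53-/- clones, a change of -1.37 ± 0.24 (adjusted p = 0.00298). In both, p53-/- clone 2 was closest to WT.

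Fcer1a, which encodes the IgE-binding chain, had levels of 14.13, 14.40 and 13.72 in WT and 11.34, 12.57 and 11.84 in p53-/- clones, a change of -2.33 ± 0.31 (adjusted p = 0.000538). The inhibitory receptor Lilrb4a had 9.76, 9.88 and 9.06 in WT and 6.07, 8.02 and 6.34 in p53-/- clones, a change of -2.92 ± 0.43 (adjusted p = 0.00108). Sirpa, the receptor for the signal CD47 that restrains phagocytosis, had 11.93, 12.20 and 12.38 against 10.52, 10.44 and 10.47, a change of -1.72 ± 0.28 (adjusted p = 0.00201). Here too p53-/- clone 2 was the highest p53-/- clone for Fcer1a and Lilrb4a, while for Sirpa the 3 p53-/- clones were level. The remaining 4 were Cd300lb, Cd300lf, the adaptor Myd88 and the inflammasome sensor Nlrc4, of which Cd300lb, Myd88 and Nlrc4 had log2 changes of -2.71, -1.27 and -1.21. Cd300lf was undetected in all p53-/- clones and was at least 3.35-fold lower (adjusted p = 0.00617). The inhibitory receptor Pilra, outside the list, had a change of -3.57 ± 0.52 (adjusted p = 0.00108). Tlr4, the lipopolysaccharide receptor, did not pass, at -0.70 ± 0.45 (adjusted p = 0.341).

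Of these receptors, Fcer1a, Lilrb4a, Sirpa and Pilra were called with each array left out. Tyrobp lost its call without WT clone 2, p53-/- clone 1 or p53-/- clone 3, Fcer1g without WT clone 2 or p53-/- clone 1, and Cd300lb without WT clone 2, WT clone 3 or p53-/- clone 3. Myd88 passed only without WT clone 3 or p53-/- clone 1, Cd300lf only without WT clone 1, and Nlrc4 in no such fit. Without array weights Tyrobp, Fcer1g, Cd300lb and Myd88 were not called, with the values processed by the authors Cd300lb, Cd300lf and Nlrc4 were not, and with the clone as a random block Nlrc4 was not. The list had 3 calls without WT clone 2, 4 without p53-/- clone 3 and 5 without p53-/- clone 1. Markers of mature cell types went in different directions. The 7 monocyte and macrophage markers summed to 15.9 to 16.1 in WT and 13.5 to 15.3 in p53-/- clones, with Adgre1 (F4/80) called lower at -3.75 ± 0.63, and the 10 mast cell and basophil markers to 15.9 to 16.4 against 15.1 to 15.5, with the mast cell protease Cpa3 called lower at -3.05 ± 0.61. Of the 7 monocyte markers, 6 were detected in every WT clone and 4 in every p53-/- clone, and of the 10 mast cell markers 8 in each, with 1 undetected in all WT clones. The 4 dendritic cell markers summed to 13.3 in each WT clone and to 12.5 to 13.1 in p53-/- clones, but 2 had a positive and 2 a negative change and 0 were called. A sum follows the brightest genes of its list. Sums of other lineages also stood apart. They were 14.9 to 15.1 in WT and 11.7 to 12.3 in p53-/- clones for 7 T and NK cell markers, with Thy1 called lower. For 11 stroma and epithelium markers they were 14.8 to 14.9 and 13.3 to 14.3, and for 5 B cell markers 7.49 to 7.58 and 8.10 to 9.39. The 16 neutrophil granule genes overlapped, at 12.98 to 15.87 in WT and 13.63 to 13.99 in p53-/- clones, as did the 11 megakaryocyte and platelet markers, at 13.5 to 13.7 and 13.6 to 14.1, and the erythroid markers were higher in sum. Adgre1 lost its call without WT clone 2 or without array weights, and Cpa3 passed only without p53-/- clone 2. Their part in the receptor differences was not tested.

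**Figure D2:**
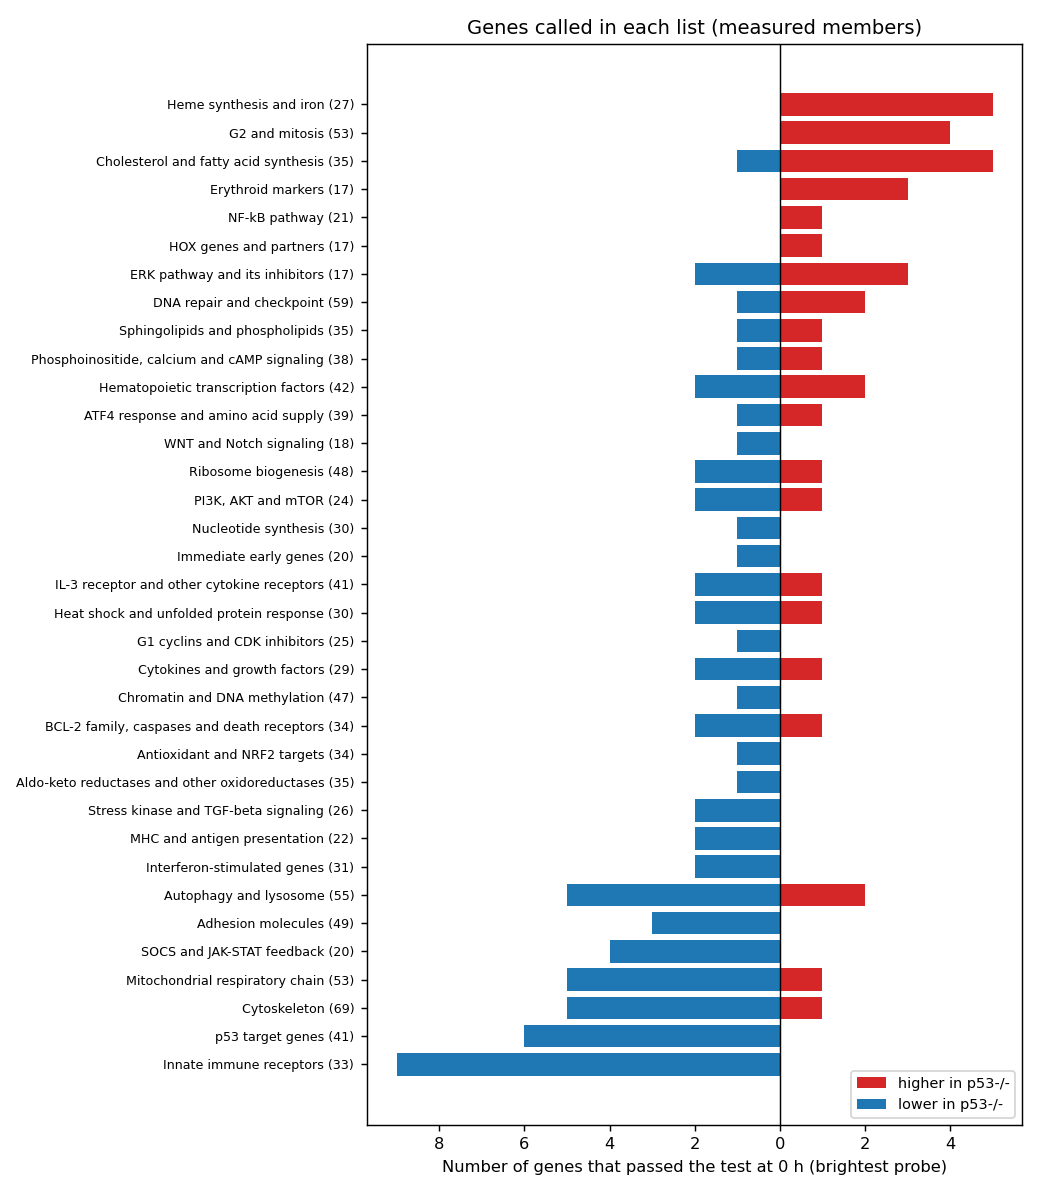
Number of genes called higher (red, to the right) or lower (blue, to the left) in p53-/- cells at 0 h, for gene lists with at least 12 measured members and at least 1 call (1 such list is not shown), with the number of measured members in brackets. Innate immune receptors have 9 genes lower and 0 higher, p53 target genes 6 and 0, and heme synthesis and iron 0 lower and 5 higher.

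On the p53-/- side, 5 genes of heme synthesis and iron handling were called higher. They were 5 of 27 measured, with 0 called lower and 22 not called (2.30% and 2.96% of all genes were called higher and lower). The changes were positive in 16 and negative in 11, where 53.3% and 46.7% of all genes were. The median of the list was 0.41 on the log2 scale, and 4 of the 5 were called higher again at 6 and 18 h. Ppox, which makes protoporphyrin, had log2 levels of 7.70, 7.27 and 7.10 in WT and 9.62, 8.96 and 9.71 in p53-/- clones, a change of 2.13 ± 0.28 (adjusted p = 0.000538), and 1.28 on its brighter probe. Slc25a38, which brings glycine into mitochondria for the first step of the pathway, had 9.63, 9.34 and 8.90 against 10.75, 11.06 and 11.27, a change of 1.72 ± 0.25 (adjusted p = 0.00108). The groups were well apart for both genes.

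Uros, the enzyme that closes the porphyrin ring, had log2 levels of 9.71, 8.62 and 8.37 in WT and 10.85, 10.76 and 11.56 in p53-/- clones, a change of 2.34 ± 0.50 (adjusted p = 0.0077). Fech, which inserts iron, had a change of 1.24 ± 0.26 (adjusted p = 0.00734) on its brightest probe, 0.58, 0.16 and -1.09 on 3 others that were not called, and was not called at 6 or 18 h. No WT clone had detectable Hebp1, whose product binds heme, and its level in p53-/- clones was at least 24.6-fold higher (adjusted p = 0.000382). Ppox, Slc25a38 and Hebp1 were called with each array left out, although Hebp1 was not with the values processed by the authors, and Uros passed only without WT clone 1 and Fech only without WT clone 1 or p53-/- clone 2. The list had 3 calls without WT clone 2, WT clone 3, p53-/- clone 1 or p53-/- clone 3.

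Values of the erythroid markers stand beside them. Of 17 measured, 16 had a positive change, as did 53.3% of all genes. In all 3 were called higher, where 2.30% of all genes were, and the median log2 change of the 17 markers was 2.99. Their summed level was 14.56 to 14.99 in WT and 15.70 to 16.39 in p53-/- clones, and 4 of the 17, among them the erythroid heme enzyme gene Alas2 and Slc4a1, were undetected in all WT clones. For Slc4a1, the anion exchanger of the red cell membrane, the bound was at least 8.12-fold (adjusted p = 0.000382). The part of the erythroid markers in the heme difference was not tested. 2 further genes of the red cell membrane skeleton were called in the same direction. Tmod1, which caps actin filaments, had a level at least 6.04-fold higher (adjusted p = 0.000559), and Add2, which encodes beta-adducin, had a bound of at least 2.47-fold higher (adjusted p = 0.000599). Both were undetected in the WT clones. Slc4a1 and Tmod1 were not called with the values processed by the authors.

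For several of the largest differences on this side, WT clone 1 lay between the genotypes. Bcl11a, the repressor of fetal globin genes, had log2 levels of 8.50, 4.61 and 5.01 in WT and 11.69, 11.06 and 11.05 in p53-/- clones, a change of 6.08 ± 1.34 (adjusted p = 0.00901). Pla2g12a, a phospholipase, had 8.18, 4.53 and 5.06 in WT and at least 9.60 in every p53-/- clone on its called probe, while its 3 brighter probes had changes of 0.90, 0.95 and 1.13 and did not pass. Dnaja4, a chaperone, Slc4a8, a bicarbonate transporter, and Art4, a blood group antigen, had 7.39, 7.02 and 6.84 in WT clone 1 and at most 5.73, 4.46 and 4.74 in the other WT clones. Rhag and Hemgn, both erythroid genes, were also highest in WT clone 1 among the WT clones. In 19 of the 423 probes called higher, WT clone 1 was more than 1 above both other WT clones, against 0 for WT clone 2 and 2 for WT clone 3. All 7 lost their call without WT clone 2 or WT clone 3 and were called in at most 3 of the 6 fits with an array left out, and their log2 changes over the 6 fits ran from 3.17 for Art4 to 6.44 for Bcl11a.

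The higher genes with the smallest p values had different functions. Smpdl3a, a phosphodiesterase related to acid sphingomyelinase, had log2 levels of 5.98, 4.89 and 5.39 in WT and 9.82, 9.27 and 10.37 in p53-/- clones. Khk, the kinase that commits fructose to metabolism, had 8.56, 7.63 and 7.48 in WT and 10.35, 10.91 and 9.76 in p53-/- clones, a change of 2.61 ± 0.33 (adjusted p = 0.000398), and 2.12 on a second probe. The groups did not overlap for either gene. Slc26a1, an anion transporter, was undetected in every WT clone, and the p53-/- level was at least 4.28-fold higher (adjusted p = 0.000331). Aqp11, a water channel of internal membranes, had 6.57, 5.68 and 5.70 against 7.93, 8.25 and 7.41, a change of 2.06 ± 0.24 (adjusted p = 0.000331). Cyth3, an exchange factor for ARF GTPases, had 6.08, 4.89 and 5.16 against 8.43, 7.59 and 7.70. WT clone 1 was the highest WT clone for Khk, Aqp11 and Cyth3, still below every p53-/- clone.

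Sgk1, a kinase induced by growth factors and steroids, had log2 levels of 6.00, 5.41 and 4.72 in WT and 8.49, 7.59 and 8.89 in p53-/- clones, a change of 2.94 ± 0.30 (adjusted p = 8.83e-05), and 2.59 on a second called probe. Ninl, a centrosome protein, and Tmem268 were undetected in WT and at least 3.10-fold and 2.24-fold higher. Rnf167, a ubiquitin ligase of endosomes and lysosomes, was called on 3 of its 4 probes, with log2 changes of 1.42, 1.13 and 1.01, and had 0.67 on the brightest, which did not pass. Mtfr1l, a mitochondrial protein, had a change of 1.38 on its called probe and 0.52 on the brightest. Sgms1, a sphingomyelin synthase, was undetected in WT on its called probe and at least 2.30-fold higher, while its brightest probe, with 10.47, 10.42 and 9.78 in WT and 11.68, 10.75 and 10.41 in p53-/- clones, overlapped. Aagab, which helps to assemble clathrin adaptors, had changes of 1.29 and 0.78 on its 2 probes. All genes of this paragraph and the preceding one were called with each array left out.

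Enzymes of cholesterol and fatty acid synthesis were called mostly in 1 direction. Of 35 measured, 5 were called higher and 1 lower, where 2.30% and 2.96% of all genes were, with a median log2 change of 0.28. Scd1, the stearoyl-CoA desaturase, had log2 levels of 6.43, 5.28 and 5.69 in WT and 7.95, 7.81 and 7.06 in p53-/- clones, a change of 2.10 ± 0.30 (adjusted p = 0.000994). Tm7sf2, a sterol reductase, had 8.03, 8.36 and 8.39 against 9.64, 10.23 and 9.66, a change of 1.53 ± 0.24 (adjusted p = 0.00166). Both were separated between genotypes and called with each array left out. Mvk and Mvd of the mevalonate pathway and Scd2 had changes of 1.28, 1.18 and 0.88, and Fasn, the fatty acid synthase, was lower at -1.38. These 4 were called in at most 1 of the 6 fits with an array left out, and 0 of the 6 enzymes were called at all 3 times. Among 23 measured ABC transporters 3 were called higher and 0 lower, where 2.30% and 2.96% of all genes were. Of the 23, 20 had a positive change, as did 53.3% of all genes. Abcb4, which moves phosphatidylcholine across membranes, had levels of 5.04, 5.13 and 5.64 in WT and 7.97, 7.90 and 9.78 in p53-/- clones. Abcb4 was called with each array left out but not with the values processed by the authors. Abcb8 and Abcb9 were also called higher, at 1.01 and 1.16, but in only 2 and 1 of the 6 fits with an array left out. Neither was called with median scaling. The median log2 change of the 23 transporters was 0.43, and it was 0.19 with median scaling and 0.12 with the values processed by the authors.

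Genes of mitosis were called in 1 direction and those of DNA replication were not called. Of 53 genes of G2 and mitosis, 4 were called higher and 0 lower, where 2.30% and 2.96% of all genes were. Their median log2 change was 0.49. Of 48 DNA replication genes 0 were called in either direction, with a median of 0.30. Cdc20, the activator of the anaphase-promoting complex, was called on all 3 of its probes, with log2 levels of 10.25, 9.80 and 10.11 in WT and 11.28, 10.96 and 11.51 in p53-/- clones on 1 of them, a change of 1.35 ± 0.22 (adjusted p = 0.00191). Mybl2, a transcription factor of cycling cells, Cdc25c, the phosphatase that opens mitosis, and the kinase Melk had changes of 1.87, 1.48 and 1.39. Cdc20 lost its call without WT clone 2, Mybl2, Cdc25c and Melk each without WT clone 2, WT clone 3 or p53-/- clone 1 and in further fits, and the list had 0 calls without WT clone 2, WT clone 3 or p53-/- clone 1, 1 without p53-/- clone 3 and 2 without p53-/- clone 2. At 18 h, on other arrays, 16 of the 53 mitosis genes and 21 of the 48 replication genes were called higher in p53-/- cells, where 4.66% of all genes were.

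Among genes of cytokines and cell death the calls went both ways. Il1b, the inflammatory cytokine, had log2 levels of 10.12, 9.23 and 9.23 in WT and 12.78, 12.01 and 13.68 in p53-/- clones, a change of 3.48 ± 0.51 (adjusted p = 0.00108). Tnfsf13 (APRIL), a survival factor for B cells, had 8.70, 8.79 and 9.15 against 4.84, 6.00 and 4.52, a change of -3.71 ± 0.47 (adjusted p = 0.000424), and Il16 had -1.67 and was not called without p53-/- clone 1 or p53-/- clone 2. Il1b was higher in every p53-/- clone and Tnfsf13 was detected in 1 of the 3. Ripk3, the kinase of necroptosis, had 9.27, 8.68 and 9.54 in WT and 11.02, 10.62 and 10.62 in p53-/- clones, a change of 1.86 ± 0.36 (adjusted p = 0.00441). Casp1, the protease that processes interleukin-1, had 12.17, 12.34 and 11.66 against 9.88, 10.53 and 11.16, a change of -1.67 ± 0.38 (adjusted p = 0.0105). Casp1 and Ripk3 were each called at all 3 times but Casp1 passed only without p53-/- clone 3 and Ripk3 only without WT clone 3 or p53-/- clone 3. Bcl2, the survival protein, was called lower on 3 of its 6 probes, with changes of -2.78, -1.88 and -1.40, and its brightest, at -0.80 ± 0.30 (adjusted p = 0.0989), did not pass.

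The cytoskeletal genes that were called were mostly lower. Of 69 cytoskeletal genes 5 were called lower and 1 higher, where 2.96% and 2.30% of all genes were, with a median log2 change of -0.25. Tubb6, a beta-tubulin, had log2 levels of 9.90, 10.13 and 10.33 in WT and 8.60, 7.89 and 7.75 in p53-/- clones, a change of -2.07 ± 0.37 (adjusted p = 0.00295). Stmn1, which destabilizes microtubules, and Anxa1, a membrane-binding annexin, had changes of -1.95 and -2.96. The exception was Gsn, the actin-severing protein gelsolin, with 10.94, 10.96 and 10.39 against 13.38, 12.64 and 13.07, a change of 2.15 ± 0.36 (adjusted p = 0.00226), which was called with each array left out. Stmn1 lost its call without WT clone 2, Tubb6 without WT clone 2, p53-/- clone 2 or p53-/- clone 3, and Anxa1 passed only without p53-/- clone 2.

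To see how far the differences were measured again, the called probes were sorted by the times at which they were called. Of the 423 higher probes, 135 were called higher at 0, 6 and 18 h, 87 at 0 and 6 h, 43 at 0 and 18 h and 158 at 0 h alone. Of the 504 lower probes, 105 were called lower at all 3 times, 237 at 0 and 6 h, 9 at 0 and 18 h and 153 at 0 h alone. Over all probes, 3.82% were called higher and 4.23% lower at 6 h, and 3.68% and 3.75% at 18 h. The times share clones, so a repeat says that the difference was found on other arrays of the same cell lines. Without WT clone 2 the counts at all 3 times were 44 higher and 49 lower, without p53-/- clone 3 they were 82 and 64, and the higher count was 76, 83 and 86 without WT clone 3, p53-/- clone 1 and p53-/- clone 2. Of all called genes, 40 higher and 60 lower were called in each of 18 alternative fits, and 21 and 26 of these also at 6 and 18 h.

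The probes lower at 0 and 6 h but not at 18 h were followed over time. Over these 237 probes the median log2 level of an array was 8.26 to 8.64 in WT at 0 h, 8.47 to 8.62 at 6 h and 7.29 to 7.62 at 18 h, and in p53-/- clones 6.59 to 7.05, 6.89 to 7.10 and 5.03 to 7.24. The WT level was thus lower at 18 h than at 0 h while 2 of the 3 p53-/- arrays stayed near 7, and the lowest value, 5.03, was the 18 h array of p53-/- clone 3. For the 105 probes lower at all times the WT arrays lay between 8.99 and 9.53 at every time. The change of the genotype difference from 0 h to 18 h was itself called for 106 of the 504 lower probes and for 12 of the 423 higher probes, and for 1.31% of all probes. These probes were chosen for their difference at 0 h and the change was measured from the same 0 h arrays, so the counts are a description.

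**Figure D3:**
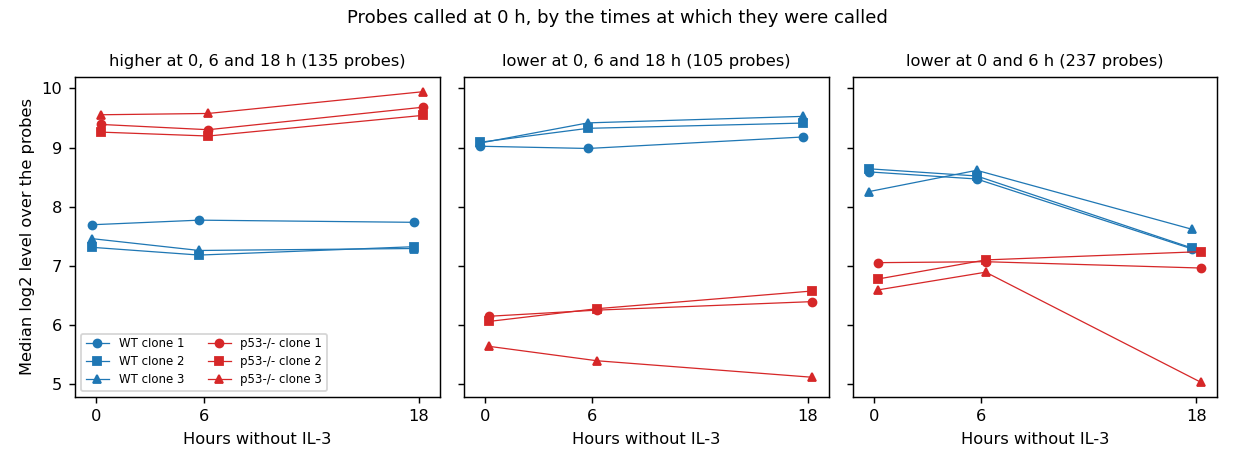
Median log2 level over the probes of 3 classes (vertical axis) against hours without IL-3, 1 line per clone, WT in blue and p53-/- in red. In the right panel (237 probes lower at 0 and 6 h) the WT arrays are at 7.29 to 7.62 by 18 h, nearer to the p53-/- arrays at 5.03 to 7.24 but still above them, and in no panel do the genotypes overlap at any time.

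Rpl22l1, a ribosomal protein paralog, shows the pattern. Its log2 level was 7.60, 7.38 and 7.13 in WT clones at 0 h and 5.34, 5.93 and 5.34 at 18 h, and in p53-/- clones 5.19, 5.07 and 4.77 at 0 h, where it was undetected. The 0 h level was at least 3.33-fold lower than in WT (adjusted p = 0.000312), and the log2 difference was -0.28 at 18 h. Kifbp, a kinesin-binding protein, Slc16a6, a monocarboxylate family transporter, Celf2, a splicing regulator, and Akr1c18, a steroid dehydrogenase, had differences of -2.34, -2.32, -1.92 and -4.92 at 0 h and -0.06, -0.35, -0.52 and -0.99 at 18 h. For Slc16a6 and Celf2 these are values of a called probe that was not the brightest of the gene. The brightest Celf2 probe had -1.41 at 0 h (limma adjusted p = 0.0317) and did not pass. Tex261 had -1.65 at 0 h and 0.31 at 18 h on its called probe. Acadsb, an acyl-CoA dehydrogenase, St8sia4, a polysialyltransferase, and the zinc finger gene Zfp661 had -1.73, -2.29 and -1.63 at 0 h and -0.62, -0.88 and -0.22 at 18 h. All 9 genes were called at 0 h with each array left out, and Celf2 and Tex261 were not called without array weights.

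A few subunits of the respiratory chain were called at 0 h. Of 53 measured genes 5 were called lower and 1 higher, where 2.96% and 2.30% of all genes were, and 47 were not called, with a median log2 change of -0.16. At 18 h 0 were lower and 3 higher, where 3.59% and 4.66% of all genes were, with a median of 0.30. Sdhd, a membrane anchor of succinate dehydrogenase, had log2 levels of 9.60, 9.48 and 8.79 in WT and 7.18, 7.57 and 7.06 in p53-/- clones at 0 h, a change of -2.12 ± 0.32 (adjusted p = 0.00117). At 18 h the Sdhd levels were 7.19, 6.94 and 7.32 in WT and 7.67, 7.88 and 4.96 in p53-/- clones. The WT clones were then close to where the p53-/- clones had been at 0 h. Ndufb5 of complex I and Uqcrb of complex III had changes of -1.74 and -1.79 at 0 h and 0.30 and 0.16 at 18 h. Ndufb2 of complex I was undetected in all p53-/- clones at 0 h and was at least 1.98-fold lower, and its difference at 18 h was 0.79. Sdhd was called with each array left out, Ndufb5 was not without p53-/- clone 1, Uqcrb passed only without WT clone 3 or p53-/- clone 2, and Ndufb2 only without p53-/- clone 3 and not with the clone as a random block. None of these 4 was called without array weights, and only Sdhd was called at 6 h.

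Other probes of the same genes were compared as a measurement on independent sequences. For genes called higher, 84.0% of 225 further probes had a positive change, and 92.9% of 56 for the genes higher at all 3 times. For genes called lower, 62.6% of 257 further probes had a negative change, 78.6% of 28 for those lower at all 3 times and 60.8% of 153 for those lower at 0 and 6 h. Among the 5579 uncalled probes of all genes with several probes, 56.6% were positive and 43.4% negative. Tex261 is an example, with log2 levels of 11.11, 11.20 and 11.02 in WT and 9.67, 9.33 and 9.54 in p53-/- clones on the called probe, but changes of -0.12, -0.54 and 0.46 on its 3 other probes. Counted by gene, all probes had the same sign in 146 of 177 higher genes (82.5%) and in 100 of 170 lower genes (58.8%), and of all 2556 genes with several probes 35.6% were positive and 24.6% negative on every probe. The higher and lower genes were chosen through a called probe that is itself counted. Part of their agreement was thus fixed by the choice, and the shares over all genes are not a like comparison. Why the probes of a gene differed was not tested.

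The neighborhood of the targeted gene on chromosome 11 was examined because a deletion is passed on with the sequence around it. Of the 10 nearest measured genes on each side, 4 of 20 were called, against 5.25% of all genes, and the cause was not tested. Wrap53, which overlaps the targeted gene head to head, had log2 levels of 8.76, 8.11 and 8.18 in WT and 9.72, 9.55 and 9.58 in p53-/- clones, a change of 1.41 ± 0.21 (adjusted p = 0.00127). Fxr2, an RNA-binding protein, had 9.69, 10.30 and 10.19 against 7.62, 7.44 and 7.78, a change of -2.59 ± 0.23 (adjusted p = 4.46e-05). The second Fxr2 probe had 8.24, 8.33 and 8.48 against 8.17, 8.71 and 8.70, a change of 0.19 ± 0.21, and there the groups overlapped. The other called neighbors were Tnfsf13, described above, and Mpdu1, a protein of dolichol sugar use, at 0.89 ± 0.17. Nlgn2 and Chd3 had changes of 2.88 and -1.95 that did not pass. Wrap53, Fxr2 and Tnfsf13 were called with each array left out and Mpdu1 was not without WT clone 1, WT clone 2 or p53-/- clone 1.

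Subunits of eIF2B, the exchange factor that recharges the initiation factor eIF2, were picked after their values were seen. Of the 5 subunit genes 4 were called higher on some probe, where 334 of the 10295 genes with any measured probe were. The gene lists count the brightest probe alone, and on that probe 2.30% of all genes were called higher. Eif2b1 and Eif2b2 were called on their brightest probes, at 0.80 ± 0.16 and 0.73 ± 0.14 on the log2 scale. Eif2b4 was called on a dimmer probe, undetected in WT and at least 2.60-fold higher, and Eif2b5 on a dimmer probe at 1.10, with 0.81 and 0.55 on their brightest. Eif2b3 had 0.60 ± 0.37 and was not called. For Eif2b3 the clones had 10.17, 10.19 and 9.96 in WT and 10.18, 10.26 and 11.76 in p53-/-, so the difference lay in p53-/- clone 3. Eif2b4 was called with each array left out but not with the values processed by the authors, and Eif2b1, Eif2b2 and Eif2b5 each lost their call without WT clone 1, WT clone 2, p53-/- clone 1 or p53-/- clone 3.

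Clones of 1 genotype differed from each other as well. Over the 11479 probes detected on all 6 arrays, the median SD was 0.205 among WT and 0.341 among p53-/- clones. A gene was counted for a clone when its level at 0 h was more than 2 on the log2 scale above or below both other clones of its genotype. This gave 55 genes above and 169 below for p53-/- clone 3, 97 above and 31 below for WT clone 3, and 31 above and 25 below for WT clone 1, while WT clone 2 and p53-/- clone 2 had 18 and 17 in all. Most of these were seen again with a gap over 1 at both 6 and 18 h, as for 149 of the 169 genes low in p53-/- clone 3 and 87 of the 97 high in WT clone 3. Among the 504 probes called lower, p53-/- clone 3 was more than 1 below both other p53-/- clones in 34, against 3 for clone 1 and 9 for clone 2.

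In p53-/- clone 3, Prnp, the prion protein gene, had a log2 level of 5.58 against 13.17 and 12.90 in the other p53-/- clones, and Ly6c1, a myeloid surface antigen, 5.91 against 12.45 and 12.89. Rhox5, a homeobox gene, was high there at 11.06 against 4.45 and 4.64. In WT clone 3, S100a8 and S100a9, the calprotectin genes of neutrophils, had 13.42 and 11.99 against at most 5.50 and 5.19 in the other WT clones. In p53-/- clone 1, Vill and Maob were at 10.18 and 10.33 against at most 5.12 and 5.89 in the other p53-/- clones, and the cytokine gene Osm was at 5.09 against 10.12 and 10.67. In p53-/- clone 2, Prg2, the eosinophil major basic protein, was at 12.05 against 6.93 and 7.79. Of the 25 genes low in WT clone 1, 10 were low again at both later times. Tuba1b, at 4.39 against 15.07 and 15.03 at 0 h, was not low again at 6 h or at 18 h, so its low value was that of the 0 h array alone. Mpo, the myeloperoxidase gene, shows how such spread entered the comparison. Its brightest probe had 5.55, 4.48 and 10.01 in WT and 10.70, 9.64 and 12.82 in p53-/- clones, which overlapped and did not pass (change 5.62 ± 1.68, adjusted p = 0.0389), and 1 dimmer probe was called at 3.69 but, with an array left out, only without p53-/- clone 2.

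**Figure D4:**
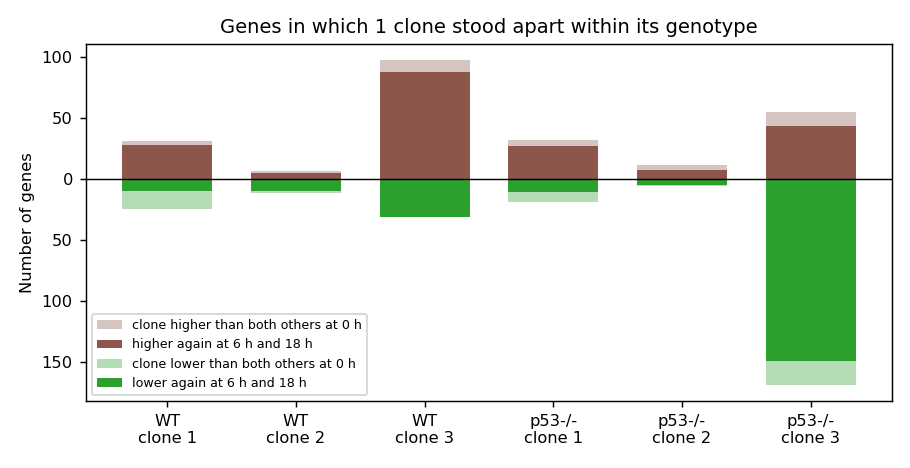
Number of genes (vertical axis) in which a clone lay more than 2 on the log2 scale above (brown, upward) or below (green, downward) both other clones of its genotype at 0 h, in pale color, and again with a gap over 1 at 6 and 18 h, in full color. p53-/- clone 3 has 169 genes below and WT clone 3 has 97 above.

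The sex-linked transcripts also divided the clones within a genotype. Xist, the RNA of the inactive X chromosome, had log2 levels of 8.85, 10.16 and 4.84 in WT and 8.02, 4.86 and 5.01 in p53-/- clones, and Eif2s3y of the Y chromosome 4.82, 4.44 and 9.34 against 4.38, 7.62 and 6.89. WT clones 1 and 2 and p53-/- clone 1 had Xist, and WT clone 3 and p53-/- clones 2 and 3 had Eif2s3y, so these transcripts were not balanced between the genotypes. The part of sex in the differences was not tested.

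Levels were then compared along the chromosomes, as the median over the genes of a chromosome of each array minus the mean of the 3 WT arrays, over genes with a mean log2 level above 8. Chromosome 4 of p53-/- clone 3 had a median of 0.394 over 334 genes, and again 0.360 at 6 h and 0.455 at 18 h on other arrays. Chromosome 4 of the other p53-/- clones was at 0.0123 and 0.00394. All other autosomes of all 6 clones lay between -0.210 and 0.144 at 0 h, and the X chromosome of p53-/- clone 3 was at -0.246. At 6 h the other autosomes lay between -0.273 and 0.174 and at 18 h between -0.621 and 0.178. The lowest at both times was chromosome 18 of p53-/- clone 3, at -0.177 at 0 h, -0.273 at 6 h and -0.621 at 18 h, and its X chromosome was at -0.340 and -0.517 at the later times. The 18 h array of this clone had the lowest weight of all arrays. Of 623 genes on chromosome 4, 16 were called higher and 10 lower (2.57% and 1.61%, against 2.30% and 2.96% of all genes). Chromosome 5 had 30 higher and 26 lower among 655 genes (4.58% and 3.97%). The cause of the shift in clone 3 was not tested.

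**Figure D5:**
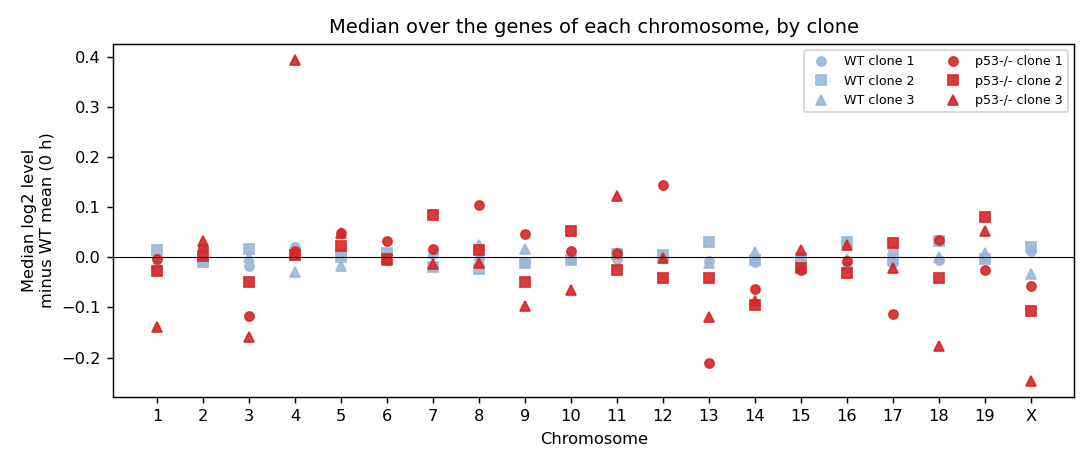
Median over the genes of each chromosome (horizontal axis) of the log2 level minus the mean of the 3 WT arrays at 0 h (vertical axis), 1 symbol per clone, WT in pale blue and p53-/- in red. Chromosome 4 of p53-/- clone 3 is at 0.394, while its other autosomes and those of all other clones are between -0.210 and 0.144.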

How the data were processed

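Illumina MouseWG-6 V1 arrays held RNA of 3 WT and 3 p53-/- FDM clones, each at 0, 6 and 18 h. The intensity values of all 18 arrays are as the authors deposited them, 1 mean per probe and not normalized between arrays, with a detection score that the authors deposited as 1 minus the detection p. A table of log2-like values that the authors made with lumi was also deposited and was used only as an alternative. Of the 46632 probes, 29976 carried 1 gene symbol, 10 several and 16646 none, and 29921 were matched to RefSeq by gene number.

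Background was corrected by neqc (limma 3.58.1 under R 4.3.3, offset 16), followed by quantile normalization and log2 transformation. Probes with detection p under 0.01 on at least 1 of 18 arrays were kept (21413). With arrayWeights, lmFit and eBayes 1 model with 6 groups was fitted to all arrays, with no block, with Benjamini-Hochberg adjustment over the 21413 probes. Arrays of the same clone at different times were thus treated as independent in every p and SE, although they deviated together (r from 0.276 to 0.756). All tests were two-sided. Changes are p53-/- minus WT with array weights and are not differences of plain means. With 3 clones a side an exact permutation test could not go below p = 0.1. Precision is limited by having 3 arrays per group. The methods leave out 1 array that the sources used here do not name, and all 18 entered the fit.

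For a probe undetected in all clones of 1 genotype, "at least N-fold" sets the other genotype's mean log2 level against, per array, the lowest signal of a detected probe or the probe's own, whichever is higher.

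The genes and the 55 gene lists were chosen with earlier results of these data known. Genes are named by rule: up to 20 in each direction with the smallest p and 10 with the largest change among called probes with separated groups, up to 4 members per list with the smallest p, others that did not pass, and up to 5 per clone with the largest gap. For genes named by p or by change, separated groups were thus part of the choice and not a result. Others were chosen after their values were seen (Pilra, Rnase4, Ang, Selenop, Adgre1, Cpa3, Bcl2, Rnf167's and others' dimmer probes, the eIF2B genes). A gene that this rule names and a gene list are not reported here. On simulated data for this comparison (21413 probes) 20 of 100 probes shifted by 1 and 78 of 100 shifted by 2 on the log2 scale were recovered, and 5 unshifted probes were called. The simulated arrays were independent and of equal quality, while the real arrays share clones and differ in weight, so these shares need not hold for the real data. Alternatives changed the weights, arrays, background, scaling, filter, variance model, threshold and block. Figures were drawn with matplotlib 3.10.9 in Python 3.11.15. Slides were not known and were not modelled.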

Additional observations from a re-analysis of the deposited data

Results flagged for a closer look

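For 17 of the genes described, the difference between p53-/- and WT cells was not the same at all 3 times, by the test of the change itself in limma (Benjamini-Hochberg adjusted over all probes). Each was measured on a probe called at 0 h, which was not always the brightest of the gene. The fit had no block for the clone, although the same clones were arrayed at each time, and no alternative is given for these changes. The log2 difference moved upward from 0 h to 18 h by 2.67 for Rrm2b (adjusted p = 0.0196), 2.08 for Rpl22l1, 1.40 for Celf2, 1.96 for Slc16a6 and 1.41 for Zfp661. It moved by 3.93 for Akr1c18 (adjusted p = 0.0292), 1.96 for Tex261, 2.27 for Kifbp, 2.54 for BC028528 (adjusted p = 0.00652) and 2.64 for Stmn1. Of the respiratory chain genes it moved by 2.76 for Sdhd (adjusted p = 0.0123), 2.03 for Ndufb5 and 2.44 for Ndufb2. All 13 had been lower in p53-/- cells at 0 h, and none was called lower at 18 h.

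In 3 genes higher in p53-/- cells at 0 h the difference became smaller. For Sgms1 it changed by -1.69 from 0 to 6 h (adjusted p = 0.0214) and by -1.79 from 0 to 18 h (adjusted p = 0.00652), for Sgk1 by -2.25 and for Aagab by -0.98 from 0 to 18 h. Aqp11 went the other way, from 2.06 at 0 h to 4.04 at 18 h, a change of 1.97 (adjusted p = 0.015), with levels of 10.53, 10.65 and 10.25 in the p53-/- clones at 18 h. The 18 h array of p53-/- clone 3 had the lowest weight of all arrays and enters each of the 18 h values. The changes start from the 0 h arrays on which these genes were called.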

How the results depend on the processing

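The count of 423 higher and 504 lower probes became 210 and 235 without array weights, 197 higher with only the 6 arrays at 0 h, 1341 and 1371 at an adjusted p under 0.05 with no condition on B, 2138 and 2002 at 0.1 or lower with none, and 135 and 105 where calls at 6 and 18 h were also required. With median scaling it was 223 higher and 567 lower (28.2% higher against 45.6%), the median of all genes moved from 0.04 to -0.07, and with only the 6 arrays the split was 197 and 384 (33.9%). Leaving out 1 array gave 102 to 320 higher and 129 to 365 lower. Probes called at all 3 times were 71 higher and 69 lower without array weights, and 44 to 102 higher and 49 to 83 lower with an array left out. Without the 18 h array of p53-/- clone 3 the counts were 389 and 566 at 0 h, 116 and 95 at all 3 times, and 8 innate immune receptors lower and 4 mitosis genes higher.

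Of the p53 targets, 2 to 5 were lower with an array left out and 10 with no condition on B at 0.1. Innate immune receptors lower were 5 without weights, 14 with no condition on B at 0.1, and 3 to 7 with an array left out. Heme genes higher were 9 and 12 with no condition on B (0.05 and 0.1) and 3 to 5 with an array left out. Mitosis genes higher were 0 without weights, 1 with only the 6 arrays, 2 with median scaling, 13 and 22 with no condition on B, 7 with any probe counted, and 0 to 3 with an array left out. No named gene that was called changed direction under the alternatives run. Of 119 genes followed, calls were lost for 28 without array weights, 18 with the values processed by the authors, 16 with only the 6 arrays, 15 with median scaling, 11 without the filter on detection and 2 with the clone as a random block (Nlrc4 and Ndufb2).

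The medians of 10 lists kept their sign under 5 of the alternatives. Under median scaling DNA replication went from 0.30 to 0.02 and innate immune receptors from -0.85 to -1.29. With the values processed by the authors heme synthesis and iron went from 0.41 to 0.07, erythroid markers from 2.99 to 1.11, innate immune receptors to -0.33 and p53 targets from -0.36 to -0.14, and the median of all genes from 0.04 to 0.01.

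Clones of a genotype that share a number deviated together across times (r from 0.276 to 0.756 over 18 pairs) and clones of different genotypes did not (r from -0.031 to 0.034 over 3 pairs at 0 h). With the replicate block, 415 probes were called higher and 514 lower. With the clone as a random block 463 were called higher and 510 lower, 171 and 140 of them at all 3 times, with 8 innate immune receptors lower.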
